A study of Saccharomyces cerevisiae with 83 samples.

Results

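The comparison described here sets the whole-cell RNA of budding yeast overexpressing a FLAG-tagged Upf2 protein against that of a wild-type strain. It was taken by its labels alone: the RNA-seq libraries marked FLAGUpf2 and those of the wild type with an empty vector that served the strains with N-terminal tags, called WT-N here. These were 8 of the 83 libraries of the series and 8 of its 30 RNA-seq libraries, 4 of FLAG-Upf2 and 4 of WT-N. FLAG-Upf2 cells were W303 with the genotype nmd2::HIS3, in which the chromosomal Upf2 gene, NMD2, is disrupted by the HIS3 marker, and carried the plasmid YEplac112-FLAG-UPF2. WT-N cells were W303 of wild-type genotype with the plasmid YEplac112 alone. YEplac112 is a multicopy yeast vector that carries TRP1, so the tested strain differed from its control by the disrupted gene, by the HIS3 marker and by the plasmid-borne gene together. In each strain 2 libraries came from cultures given 100 µg/ml cycloheximide just before filtration (CHX), a drug that stops elongating ribosomes, and 2 from cultures without it (noCHX). The strain effect was tested with treatment as a covariate.

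The sources carry a limit on replication. Each strain had 2 culture codes, and each code gave 1 CHX and 1 noCHX library, so the 4 libraries of a strain may not be 4 independent cultures. The deviations of the CHX and noCHX libraries of a code had a correlation of 0.721 in WT-N and -0.128 in FLAG-Upf2. Where libraries of a code vary together, p-values and SEs come out too small. P-values therefore measure the spread between these libraries. The libraries held 83980100 to 123748000 expected counts in FLAG-Upf2 and 49079300 to 152962000 in WT-N, and replicate pairs had correlations of 0.994 to 0.997 in log2(CPM + 1) across transcripts. CPM is the usual scale of counts relative to the library total, here for expected counts. All 8 libraries used the Ribo-Zero Gold kit to remove ribosomal RNA.

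Nonsense-mediated mRNA decay, or NMD, degrades mRNAs on which translation ends too early, including mRNAs with a premature stop codon, an upstream reading frame or an intron left in place. Upf1 is an RNA helicase that joins terminating ribosomes, and Upf2 and Upf3 bind it and stimulate its activity. In yeast, loss of any of the 3 proteins stabilises much the same mRNAs. Baker's yeast also has a pair of haploid cell types, a and α, set by the MAT locus, which express different pheromones and receptors. Listed genes that mark these cell types are reported apart from the other counts below. HMRA1 and RDT1, which were not on those lists, are left in the counts and named where they matter.

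NMD2 itself stood far above its wild-type level in every FLAG-Upf2 library. The NMD2 mRNA entry (YHR077C, chromosome VIII, 252374 to 255756, R64) had 11126 and 15028 CPM in FLAG-Upf2 CHX and 7438 and 11396 CPM in FLAG-Upf2 noCHX, against 208 and 201 CPM in WT-N CHX and 152 and 164 CPM in WT-N noCHX. The groups did not overlap, and the fitted log2 fold change was 5.97 (SE 0.16, adjusted p = 6.23e-08, edgeR's quasi-likelihood test with Benjamini-Hochberg adjustment, as for every adjusted p below), a 62.8-fold difference. NMD2 took 0.915% to 1.73% of all expected counts of a FLAG-Upf2 library, against 0.0170% to 0.0236% of a WT-N library. Its unspliced entry, which keeps the intron, had 2366, 2261, 1712 and 2112 CPM in FLAG-Upf2 and 23.0, 35.4, 18 and 24.3 CPM in WT-N. That entry rose as well (log2 fold change 6.44, SE 0.19, adjusted p = 9.62e-07).

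On a per-length scale NMD2 exceeded both of its partners only in the overexpressing strain. NMD2 mRNA had 2226 to 4498 FPKM in FLAG-Upf2 and 45.4 to 62.3 FPKM in WT-N. The level of NAM7, the gene for Upf1, was 117 to 129 FPKM in FLAG-Upf2 and 93.5 to 117 FPKM in WT-N. UPF3 lay lower than both, at 32.2 to 47.3 FPKM in FLAG-Upf2 and 29.1 to 45.2 FPKM in WT-N. The RNA excess of Upf2 over Upf1 and Upf3 was thus present in all 4 FLAG-Upf2 libraries, while in WT-N the NMD2 level stood between the other two.

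PTC7, which encodes a mitochondrial protein phosphatase, also stood apart. It occupies chromosome VIII, 251101 to 252225, and its annotated end lies 148 bp from that of NMD2, on the opposite strand by their locus names (YHR076W and YHR077C). The spliced PTC7 entry had 4330, 4690, 3727 and 5452 CPM in FLAG-Upf2 and 28.5, 19.0, 24.7 and 24.1 CPM in WT-N, a log2 fold change of 7.58 (SE 0.20, adjusted p = 2.31e-07). Its unspliced entry went the other way, with 5.67, 5.90, 3.72 and 4.32 CPM in FLAG-Upf2 and 23.2, 37.7, 22.7 and 29.1 CPM in WT-N (log2 fold change -2.51, adjusted p = 7.64e-05). Neither entry overlapped between the strains. Which part of this region the plasmid holds is not given in the sources used here, and the 2 PTC7 entries share most of their sequence, so the division of reads between them rests on the counting program.

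The other genes tied to the construct were the marker genes and their neighbours. HIS3, the histidine synthesis gene used to disrupt NMD2, had 120 and 117 CPM in FLAG-Upf2 CHX and 98.8 and 73.1 CPM in noCHX, against 33.9 and 32.4 CPM in WT-N CHX and 10.5 and 11.5 CPM in noCHX. It was higher in all 4 FLAG-Upf2 libraries (log2 fold change 2.42, SE 0.26, adjusted p = 0.00901). YOR203W, beside HIS3, was higher too (1.51, SE 0.14, adjusted p = 0.00176). TRP1, carried by the plasmid in both strains, did not pass the test (-0.49, SE 0.16, adjusted p = 0.103), with 5392 to 8120 CPM in FLAG-Upf2 and 7212 to 11812 CPM in WT-N. DED1, MRM1, GAL3, IPT1, YDR008C and YHR078W did not pass the test either. In all, 6 of 13 entries of the construct and its neighbours were called, where 7.27% of all 6656 tested transcripts were.

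Genes that distinguish a from α cells showed some of the largest differences between the strains. FLAG-Upf2 libraries held high levels of genes expressed in α cells and low levels of genes expressed in a cells, and WT-N libraries the reverse. The labels give no mating type. Of the 43 mating-type genes listed and tested, 16 were called, 8 higher and 8 lower, where 7.27% of all tested transcripts were called. In bulk RNA, a lower share of cells of one type and less RNA per cell cannot be told apart.

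MF(ALPHA)1, the main gene for the α pheromone, had 692, 766, 611 and 556 CPM in FLAG-Upf2 and 0.294, 0.226, 0.106 and 0.204 CPM in WT-N. STE3, the receptor that α cells use to sense a pheromone, had 240, 243, 249 and 246 CPM in FLAG-Upf2 and 2.90, 3.26, 1.28 and 1.89 CPM in WT-N. Both were far higher in each FLAG-Upf2 library, with log2 fold changes of 11.66 (SE 0.14, adjusted p = 6.78e-10) and 6.80 (SE 0.26, adjusted p = 4.38e-05). SAG1, the α agglutinin, had 77.7, 84.4, 95.7 and 86.7 CPM in FLAG-Upf2 and 17.1, 14.6, 9.49 and 8.55 CPM in WT-N (2.85, SE 0.22). MATALPHA1 and HMLALPHA1, the active and the silent copy of the α activator gene, carry identical counts in the table and cannot be separated: 18.5, 18.7, 15.6 and 15.1 CPM in FLAG-Upf2 and 0.145, 0.186, 0.163 and 0.246 CPM in WT-N. MATALPHA2 shares sequence with copies at other mating-type loci and differed less (1.06, SE 0.04).

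The a-cell genes lay at the other extreme. MFA2, a gene for the a pheromone, had 0.197, 0.275, 0.0595 and 0.0994 CPM in FLAG-Upf2 and 132, 122, 118 and 119 CPM in WT-N (log2 fold change -9.50, SE 0.22, adjusted p = 4.46e-07). BAR1, the protease that degrades α factor, had 4.94, 5.29, 3.57 and 3.83 CPM in FLAG-Upf2 and 205, 231, 209 and 231 CPM in WT-N (-5.62, SE 0.12). STE6, the exporter of a pheromone, kept a larger residue: 39.6, 43.5, 24.2 and 25.9 CPM in FLAG-Upf2 against 571, 648, 494 and 538 CPM in WT-N (-4.09, SE 0.11). MFA1, AGA2, ASG7 and STE2 were lower as well, by -6.88, -6.51, -4.81 and -5.68 on the log2 scale. The 7 a-cell genes summed to 33.8 to 64.1 CPM in FLAG-Upf2 libraries and 1286 to 1521 CPM in WT-N libraries, and the 8 α-cell genes to 1104 to 1340 CPM in FLAG-Upf2 and 30.2 to 51.6 CPM in WT-N. The ranges did not overlap, and no defining a-cell gene was at 0 in every FLAG-Upf2 library.

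AFB1, kept in the a-cell list although it encodes a barrier to a factor made by α cells, was higher in FLAG-Upf2, with 34.1, 35.9, 33.1 and 28.6 CPM there and 2.42, 1.73, 1.99 and 1.98 CPM in WT-N (4.03, SE 0.12). HMRA1, which in this annotation holds the a1 sequence of a cells, had 2, 0, 1 and 0 expected counts in FLAG-Upf2 and 3170, 1248, 2802 and 898 in WT-N. RDT1, a small gene on the left arm of chromosome III, had 1, 7, 1 and 0 expected counts in FLAG-Upf2 and 3015, 1492, 2189 and 990 in WT-N. Both were at or near 0 in all 4 FLAG-Upf2 libraries and not in WT-N. Among 27 genes of the pheromone pathway shared by both cell types, PRM5 alone was called, and it was lower (-0.41, SE 0.06, adjusted p = 0.0063). That is 3.7% of the 27, near the 2.67% of all tested transcripts called lower. The call of PRM5 was lost when the CHX and noCHX libraries of each culture code were summed (adjusted p = 0.0666). The other tagged strains of the same set lay on the side of WT-N in the sums of a-cell and α-cell genes. The a-cell genes summed to 951 to 1202 CPM in FLAG-Upf1 and 1084 to 1122 CPM in FLAG-Upf3, and the α-cell genes to 55.8 to 65.9 CPM in FLAG-Upf1 and 31.4 to 50.6 CPM in FLAG-Upf3. So did a strain with the genotype upf1::HIS3 that carried plasmids for FLAG-Upf1, Upf2 and Upf3 together, with a-cell sums of 1265 and 1107 CPM and α-cell sums of 82.8 and 76.0 CPM in 2 CHX libraries. A strain of the series with the genotype nmd2::HIS3, upf1::URA3 lay on the side of FLAG-Upf2, with a-cell sums of 106 to 110 CPM and α-cell sums of 1025 to 1063 CPM in 3 libraries. In the comparison with WT-N alone, mating type, the disrupted NMD2 and the plasmid coincide and cannot be told apart, and the counts by list below leave the mating-type genes out.

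**Figure D1:**
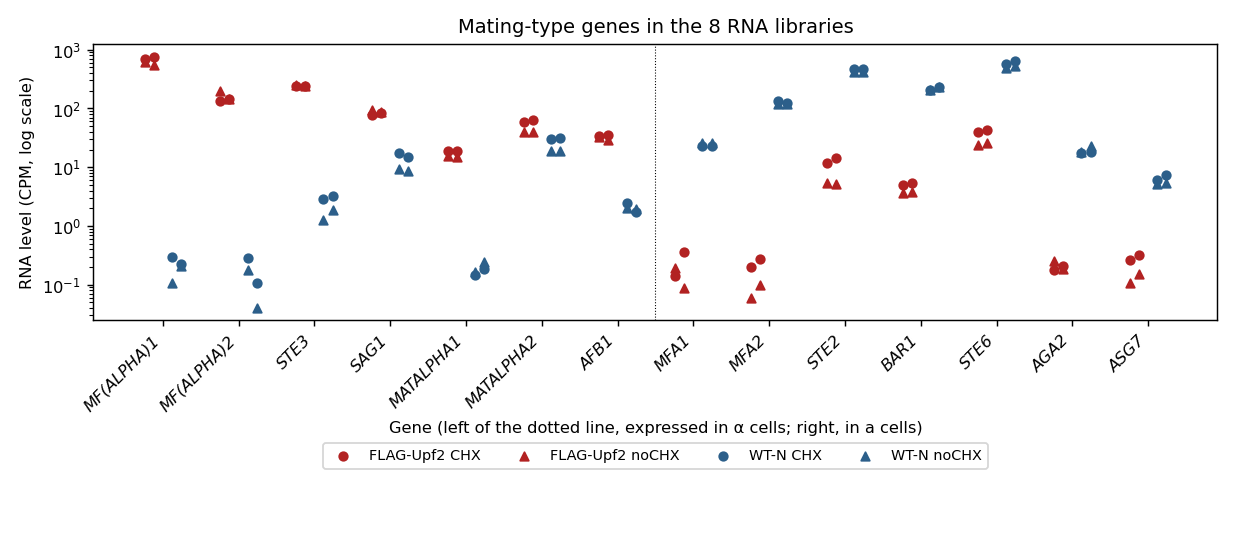
RNA level in CPM (log scale) of genes expressed in α cells (left of the dotted line) and in a cells (right) in each of the 8 libraries, with FLAG-Upf2 in red and WT-N in blue, circles for CHX and triangles for noCHX. FLAG-Upf2 points lie above WT-N points for each gene on the left and below them for each gene on the right, from MF(ALPHA)1 at 556 to 766 CPM against 0.106 to 0.294 CPM to MFA2 at 0.0595 to 0.275 CPM against 118 to 132 CPM.

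Outside these sets the RNA of the strains differed modestly. In all, 484 of 6656 transcripts were called at an adjusted p under 0.05 (7.27%), 306 of them higher (4.6%) and 178 lower (2.67%) in FLAG-Upf2. Without the mating-type and construct lists, 293 of 6600 transcripts were called higher and 169 lower, and the median log2 fold change of the 6600 was -0.0058. A difference of at least 2-fold was seen in 9 of the higher and 12 of the lower transcripts, 3 of the 12 being HMRA1, its unspliced entry and RDT1, and one of at least 1.5-fold in 43 and 13. Calls were as frequent as 9.74% among transcripts of 20 to 50 CPM, against 1.47% under 1 CPM and 3.88% over 200 CPM. The number of calls depended on the replication assumed: 74 transcripts, all of them among the 484, were called when the CHX and noCHX libraries of each culture code were summed. Without 1 library the count fell to 194 (FLAG-Upf2 CHX replicate 1), 135 (FLAG-Upf2 noCHX replicate 1), 160 (FLAG-Upf2 noCHX replicate 2), 220 (WT-N CHX replicate 1), 176 (WT-N noCHX replicate 1) or 155 (WT-N noCHX replicate 2). DESeq2 called 1062 transcripts, 503 higher and 559 lower, while edgeR with RLE size factors called 521, 292 higher and 229 lower.

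**Figure D2:**
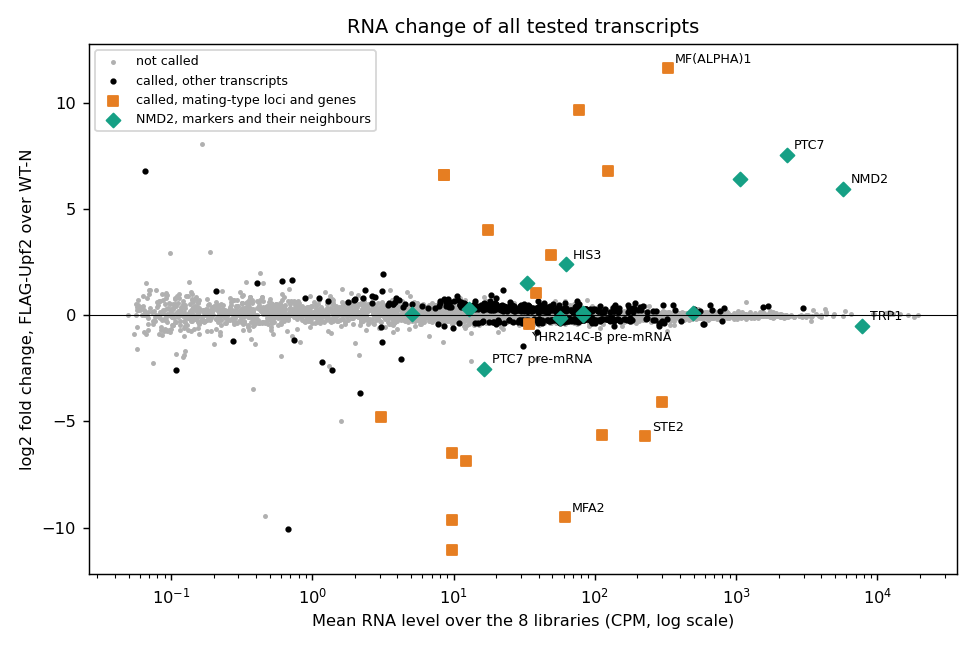
Log2 fold change of RNA, FLAG-Upf2 over WT-N, against mean RNA level in CPM (log scale) for the 6656 tested transcripts, in grey where not called, black where called, with called mating-type genes and loci as orange squares and the construct and its neighbours as green diamonds. Large changes at high level include MF(ALPHA)1 at 11.66, PTC7 at 7.58 and NMD2 at 5.97 above 0 and MFA2 at -9.50 below it, while most black points lie close to 0.

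Among called mRNAs with a mean of at least 5 CPM whose strains did not overlap within either treatment, the 12 with the largest increases outside these sets were IZH4, MAL11, BSC5, YNR068C, YEL073C, YIR043C, YER188W, PET18, ARG1, YDR124W, MAL31 and COS10, with log2 fold changes of 0.66 to 1.21. MAL11, a transporter of maltose and related sugars (YGR289C, chromosome VII, 1073963 to 1075813), had 29.4 and 28.2 CPM in FLAG-Upf2 CHX and 18.2 and 18.5 CPM in noCHX, against 17.8 and 19.4 CPM in WT-N CHX and 7.42 and 8.17 CPM in noCHX. Within each treatment its strains did not overlap (0.96, SE 0.12, adjusted p = 0.00331). ARG1, which makes argininosuccinate in arginine synthesis, had 82.8, 85.6, 93.9 and 104 CPM in FLAG-Upf2 and 52.4, 63.1, 50.3 and 66.0 CPM in WT-N. Every FLAG-Upf2 library was above every WT-N library (0.68, SE 0.09, adjusted p = 0.00615). COS10, a member of a family of genes near chromosome ends (YNR075W, chromosome XIV, 779916 to 781040), had 53.1, 58.9, 35.1 and 44.4 CPM in FLAG-Upf2 and 38.2, 38.4, 23.1 and 24.9 CPM in WT-N (0.66, SE 0.07, adjusted p = 0.00158). Its FLAG-Upf2 libraries were higher within each treatment, but not across treatments.

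IZH4, a membrane protein gene linked to zinc balance, had the largest fitted increase of these 12. It had 39.0 and 33.5 CPM in FLAG-Upf2 CHX and 15.5 and 34.7 CPM in noCHX, against 19.0 and 17.5 CPM in WT-N CHX and 9.49 and 9.72 CPM in noCHX (1.21, SE 0.25, adjusted p = 0.0395). Its call held in only 2 of the 8 fits that leave out 1 library, with an adjusted p of up to 0.142. BSC5 and YNR068C are neighbours by their locus names (YNR069C and YNR068C) and rose by 0.83 and 0.79. Of the 12, 9 were called without each of the 8 libraries in turn, and IZH4, YEL073C and YER188W were not. With culture codes summed, the calls of YNR068C, YIR043C, YER188W and MAL31 were lost, while that of IZH4 held (adjusted p = 0.00492). Members of the COS family are similar in sequence, so the division of reads among them is uncertain.

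Under the same limits the largest decreases, apart from HMRA1 and RDT1 given above, were in GYP8, RGS2, TOH1, HTB1, YER079W, CLD1, HHF2, HXT7, HHF1 and FYV7, with log2 fold changes of -0.76 to -0.39. GYP8, an activator of small GTPases of membrane traffic, had 33.3 and 34.2 CPM in FLAG-Upf2 CHX and 22.2 and 22.5 CPM in noCHX, against 61.1 and 67.7 CPM in WT-N CHX and 31.6 and 38.6 CPM in noCHX (-0.76, SE 0.07, adjusted p = 0.000602). TOH1, a cell wall protein gene, had 111, 119, 104 and 112 CPM in FLAG-Upf2 and 172, 165, 162 and 148 CPM in WT-N (-0.51, SE 0.05, adjusted p = 0.000696). The strains did not overlap for TOH1, and for GYP8 they did not overlap within a treatment. GYP8 lies next to STE2 and TOH1 next to ASG7 by their locus names, a closeness noticed after the values were seen. HXT7, a high-affinity glucose transporter, had 234, 245, 222 and 269 CPM in FLAG-Upf2 and 333, 286, 309 and 385 CPM in WT-N (-0.41, SE 0.08, adjusted p = 0.0288). RGS2, a regulator of glucose signalling, was lower by -0.58 (SE 0.09). Calls of HXT7, CLD1, FYV7 and YER079W were lost in 5 or more of the 8 fits without 1 library. With culture codes summed, the calls of RGS2, YER079W, CLD1, HHF2, HHF1 and FYV7 were lost.

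Some known NMD substrates were slightly higher in the overexpressing strain. Of 12 such mRNAs, 5 were called higher (41.7%) and 0 lower, where 4.6% of all tested transcripts were called higher, and the median log2 fold change was 0.21 over the 12 and -0.0057 over all tested transcripts. Positive values were seen for 10 of the 12. The list was taken over from earlier work on these data. Its counts, here and in the other comparisons of the series, are therefore given as a description. CPA1, whose leader holds an upstream reading frame and which encodes the small subunit of the carbamoyl phosphate synthase of arginine synthesis, had 157, 162, 159 and 165 CPM in FLAG-Upf2 and 123, 115, 112 and 118 CPM in WT-N. Every FLAG-Upf2 library was above every WT-N library (0.49, SE 0.04, adjusted p = 0.000124), and the call held without each library. STN1, which caps telomeres, had 56.1 and 62.1 CPM in FLAG-Upf2 CHX and 32.9 and 35.9 CPM in noCHX, against 49.8 and 50 CPM in WT-N CHX and 20.4 and 22.2 CPM in noCHX (0.49, SE 0.09, adjusted p = 0.0152). The difference of STN1 was thus wider without the drug.

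EST3, a telomerase subunit, was read from an entry that the table names pre-mRNA, which had 26.1, 26.8, 21.5 and 23.1 CPM in FLAG-Upf2 and 19.2, 23.0, 15.2 and 17.2 CPM in WT-N (0.42, SE 0.07, adjusted p = 0.0125). TEN1, the partner of STN1, had 8.42, 8.10, 4.94 and 5.45 CPM in FLAG-Upf2 and 6.98, 7.25, 3.29 and 3.57 CPM in WT-N (0.43, SE 0.11, adjusted p = 0.045). ALR1, a magnesium transporter, was called with a small change (0.17, SE 0.04, adjusted p = 0.0395). CTF13, EST1, EST2, PPR1, REV7, SPT10 and UBP7 did not pass the test, with values of -0.09 to 0.27. The count of 5 fell to 3 without FLAG-Upf2 CHX replicate 1, WT-N CHX replicate 1, WT-N CHX replicate 2, WT-N noCHX replicate 1 or FLAG-Upf2 noCHX replicate 2, and to 2 without FLAG-Upf2 noCHX replicate 1 or WT-N noCHX replicate 2. It was 2 with culture codes summed, and CPA1 was the substrate whose call was least affected.

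W303 carries mutant alleles of several marker genes, some with premature stop codons. ADE2 (0.45, SE 0.10, adjusted p = 0.0445), CAN1 (0.30, SE 0.08, adjusted p = 0.049) and LEU2 (0.43, SE 0.10, adjusted p = 0.049) were called higher. URA3 was lower, with 125, 121, 116 and 132 CPM in FLAG-Upf2 and 153, 139, 151 and 154 CPM in WT-N (-0.25, SE 0.05, adjusted p = 0.0336). The groups did not overlap for URA3, yet all 4 of these calls were lost in 6 or more of the 8 fits without 1 library.

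Factors of NMD and mRNA decay changed little beside NMD2. NAM7, for Upf1, had 405, 413, 373 and 403 CPM in FLAG-Upf2 and 346, 373, 299 and 330 CPM in WT-N (0.27, SE 0.05, adjusted p = 0.0137), with ranges that met at 373 CPM. UPF3 did not pass the test (0.15, SE 0.06, adjusted p = 0.159). EBS1, a factor related to NMD, had 212, 224, 195 and 198 CPM in FLAG-Upf2 and 179, 176, 149 and 154 CPM in WT-N (0.36, SE 0.03, adjusted p = 0.000477), and the groups did not overlap. NMD4, whose product binds Upf1, had 35.4, 37.6, 30.8 and 34.8 CPM in FLAG-Upf2 and 30.7, 30.4, 21.6 and 18.9 CPM in WT-N (0.50, SE 0.10, adjusted p = 0.0228). DCP1, a subunit of the decapping enzyme, was slightly lower (-0.17, SE 0.04, adjusted p = 0.0439). Of 22 decay genes 2 were called higher, EBS1 and NMD4, and 1 lower, DCP1, with a median of 0.02. Among all tested transcripts 4.6% were called higher and 2.67% lower. Of the 8 fits without 1 library, the call of EBS1 held in 8, that of NMD4 in 5 and that of DCP1 in 2. With culture codes summed, the calls of NAM7 (adjusted p = 0.0929) and DCP1 were lost, and those of EBS1 and NMD4 held.

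**Figure D3:**
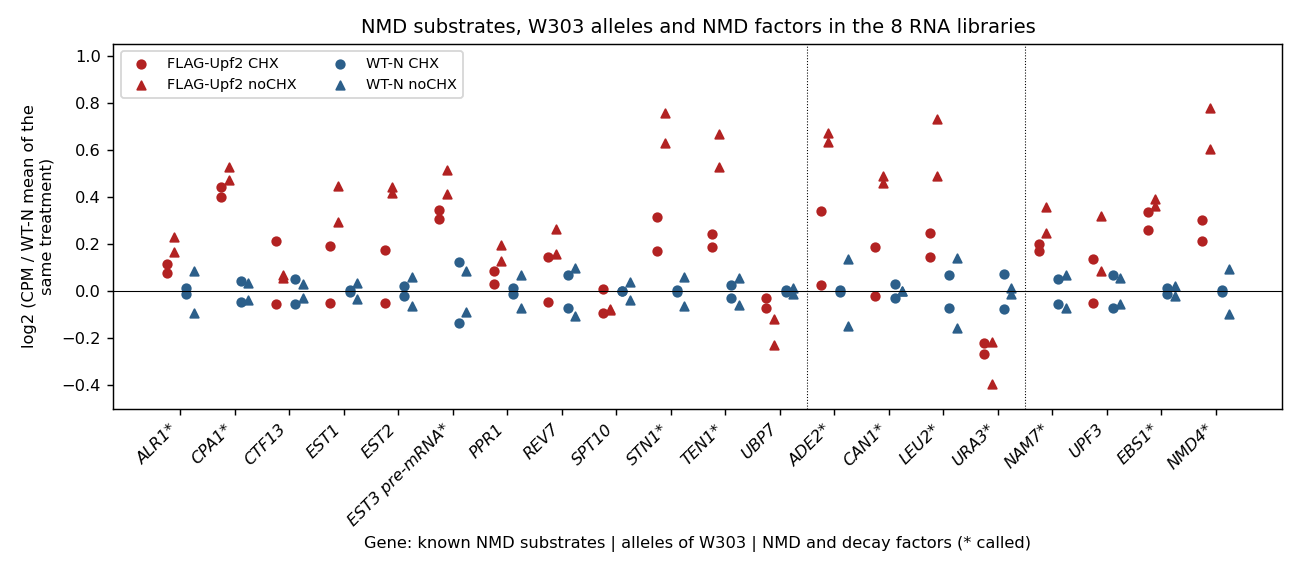
RNA of known NMD substrates, W303 alleles and factors of NMD in each library, as log2 of CPM over the WT-N mean of the same treatment, with FLAG-Upf2 in red and WT-N in blue, circles for CHX and triangles for noCHX, and an asterisk for called genes. All 4 FLAG-Upf2 points of CPA1 and EBS1 lie above all WT-N points, while those of STN1, TEN1, ADE2 and NMD4 lie highest without cycloheximide and those of UBP7 and URA3 lie below 0.

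Few unspliced entries, meaning those named pre-mRNA, were called. The class also holds the EST3 entry and Ty retrotransposon frames, so its counts are not a tally of RNA that keeps an intron. Of 321 tested, 13 were called, 9 higher and 4 lower. Outside the construct and mating-type lists 8 of 319 were higher (2.51%) and 3 lower. The higher ones included EST3 and the Ty frames YDR034C-D, YBL100W-B and YPL060C-A. The lower ones were HMRA1, HOP2 and the Ty frame YHR214C-B. The share called was 3.45% of these 319 entries, 7.61% of 5754 mRNAs with a RefSeq entry and 2.17% of 507 mRNAs without one. They made up 1.53% to 1.67% of the expected counts of FLAG-Upf2 libraries, and 1.42% to 1.67% of those of WT-N libraries, leaving out NMD2 and PTC7. RPL28, a ribosomal protein gene whose unspliced RNA is a known NMD target, had 392, 386, 324 and 300 CPM in that entry in FLAG-Upf2 and 324, 313, 209 and 192 CPM in WT-N. It was higher within each treatment, a condition of its being named (0.49, SE 0.08, adjusted p = 0.0125). HNT1 pre-mRNA showed 15.9, 11.1, 12.9 and 14 CPM in FLAG-Upf2 and 8.95, 10.4, 5.13 and 5.76 CPM in WT-N (0.92, SE 0.20, adjusted p = 0.0337). The call of HNT1 held in only 2 of the 8 fits without 1 library, with an adjusted p of up to 0.108. It was lost with culture codes summed.

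The Ty retrotransposon frames are listed as pre-mRNA, and their near-identical copies leave the split of reads uncertain. YDR034C-D, YBL100W-B and YPL060C-A were higher by 0.50, 0.58 and 0.44. YHR214C-B was lower, with 14.1, 16.8, 17.8 and 17.1 CPM in FLAG-Upf2 and 39.3, 43.7, 50.8 and 49.5 CPM in WT-N (-1.45, SE 0.06, adjusted p = 1.09e-06). Its groups did not overlap. The count of unspliced entries called fell to 7 to 8 without FLAG-Upf2 CHX replicate 1 or either FLAG-Upf2 noCHX library, and was 6 with culture codes summed.

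Histone genes were mostly lower in FLAG-Upf2. Of 10 tested, 0 were higher and 7 lower, where 2.67% of all transcripts were called lower, and all 10 had negative values with a median of -0.36. HTB1, for histone H2B, had 268 and 286 CPM in FLAG-Upf2 CHX and 185 and 186 CPM in noCHX, against 431 and 379 CPM in WT-N CHX and 269 and 253 CPM in noCHX (-0.50, SE 0.05, adjusted p = 0.00158). HHF2, for histone H4, had 586, 603, 418 and 426 CPM in FLAG-Upf2 and 860, 737, 596 and 549 CPM in WT-N (-0.41, SE 0.06, adjusted p = 0.01). Both were lower within each treatment, which the rule for the largest decreases above required. HTB2, HHF1, HTA2, HHT2 and HTA1 were called too, at -0.36, -0.39, -0.36, -0.28 and -0.27, and HHT1, HHO1 and the variant HTZ1 did not pass the test. Between 4 and 7 histone genes were called without 1 library, 4 of them without FLAG-Upf2 noCHX replicate 1, and 1 with culture codes summed, while 0 were called without both libraries of FLAG-Upf2 replicate 1. Histone genes come in similar pairs, among which the counting program divides reads.

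Lists of sugar, vitamin and chaperone genes held more higher calls than the 4.6% of all transcripts. Of 7 maltose genes 5 were higher and 0 lower, with a median of 0.59. Beside MAL11 and MAL31 these were IMA1, an isomaltase (0.59, SE 0.09, adjusted p = 0.00875), MAL32, a maltase (0.61), and MAL13, an activator of the locus (0.31). IMA1 had 27.8, 27.1, 18.3 and 19.1 CPM in FLAG-Upf2 and 20.4, 22.3, 10.7 and 11.4 CPM in WT-N, with higher values in FLAG-Upf2 within each treatment. MAL32 has a near-identical copy, MAL12, which did not pass the test. The count of 5 was 3 without any 1 library other than FLAG-Upf2 CHX replicate 2 and WT-N CHX replicate 2, and 2 with culture codes summed. Of 23 genes for heat shock proteins and chaperones 8 were higher and 0 lower, with a median of 0.18. KAR2, the Hsp70 of the endoplasmic reticulum, had 1859, 1721, 1878 and 2284 CPM in FLAG-Upf2 and 1361, 1383, 1506 and 1460 CPM in WT-N (0.46, SE 0.08, adjusted p = 0.0116). Every FLAG-Upf2 library was above every WT-N library. SSA1 (0.39), HSP82 (0.36), HSP104 (0.29), HSP78 (0.28), SSA3 (0.24), STI1 (0.21) and AHA1 (0.21) were the others, all chaperones or their partners. The count of 8 was not stable. It was 0 with culture codes summed, 1 without FLAG-Upf2 noCHX replicate 1, FLAG-Upf2 noCHX replicate 2 or WT-N noCHX replicate 2, 2 without FLAG-Upf2 CHX replicate 1, 3 without WT-N CHX replicate 1, and 4 without WT-N CHX replicate 2 or WT-N noCHX replicate 1. The call of KAR2 held without each library.

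Thiamine genes were called higher in 7 and lower in 1 of 23, with a median of 0.17. THI11 and THI12, members of a near-identical family, were higher by 0.53 and 0.84, and the thiamine transporter THI7 was lower, with 35, 39.0, 37.0 and 35.3 CPM in FLAG-Upf2 and 44.5, 44.5, 40.8 and 41.3 CPM in WT-N (-0.20, SE 0.04, adjusted p = 0.0266). With culture codes summed 0 thiamine genes were called, as was the case without FLAG-Upf2 CHX replicate 1 or either FLAG-Upf2 noCHX library or WT-N noCHX replicate 2. Without WT-N CHX replicate 1 or WT-N noCHX replicate 1 a single one was called. Of 13 arginine genes 3 were higher and 0 lower. ARG1 and the regulator ARG81 (0.23) were among them. That count was 1 without either FLAG-Upf2 noCHX library or WT-N noCHX replicate 2, and with culture codes summed. Among 25 genes of the general stress response 4 were higher and 0 lower, with a median of 0.19: RTN2 (0.43), ALD3 (0.37) and the glycogen synthases GSY1 (0.30) and GSY2 (0.29). That count was 1 with culture codes summed, and without FLAG-Upf2 CHX replicate 1, either FLAG-Upf2 noCHX library or either WT-N noCHX library. GCN4, the activator of amino acid synthesis, was higher by 0.23 (SE 0.05, adjusted p = 0.031), and with INO2 it made up the 2 called of 14 mRNAs with regulatory upstream reading frames. Other amino acid lists held 2 higher calls of 6 for histidine (HIS4 and HIS5), 2 of 12 for aromatic amino acids (ARO10 and TRP4) and 0 of 10 for branched-chain amino acids, where 4.6% of all transcripts were higher. Both histidine calls and both aromatic calls were lost without FLAG-Upf2 noCHX replicate 1, as were those of GCN4 and INO2. GCN4 was called in 1 of the 8 fits without 1 library, and TRP4 in 0.

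Mitochondrial lists leaned to lower RNA by small amounts. Of 42 respiration genes 0 were called higher and 4 lower, 40 had negative values, and the median was -0.15, where 2.67% of all transcripts were called lower. CYC1, for cytochrome c, had 277, 291, 245 and 258 CPM in FLAG-Upf2 and 343, 327, 315 and 315 CPM in WT-N, without overlap (-0.25, SE 0.04, adjusted p = 0.0121). QCR7, ATP14 and ATP15, subunits of complex III and of the ATP synthase, were lower by -0.25 to -0.27. All 67 genes of the mitochondrial ribosome had negative values, with 8 called lower, 0 higher and a median of -0.15. Among all 6656 tested transcripts 3193 had positive values. MRPS16 had 37.1, 39.5, 32.7 and 32.3 CPM in FLAG-Upf2 and 45.2, 43.0, 41.4 and 46.0 CPM in WT-N (-0.29, SE 0.06, adjusted p = 0.0225). Negative values were not particular to mitochondrial lists. Cytosolic ribosomal protein genes had 0 calls in 138, with 118 negative values and a median of -0.05. Of 46 ribosome assembly genes 3 were lower, and 37 had negative values. With culture codes summed, or without FLAG-Upf2 noCHX replicate 1, no gene of the respiration, mitochondrial ribosome or ribosome assembly lists was called. Without the other libraries in turn the counts were 1 to 8 for respiration, 0 to 10 for the mitochondrial ribosome and 0 to 4 for ribosome assembly. No gene was called among 13 telomere and 15 copper genes.

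**Figure D4:**
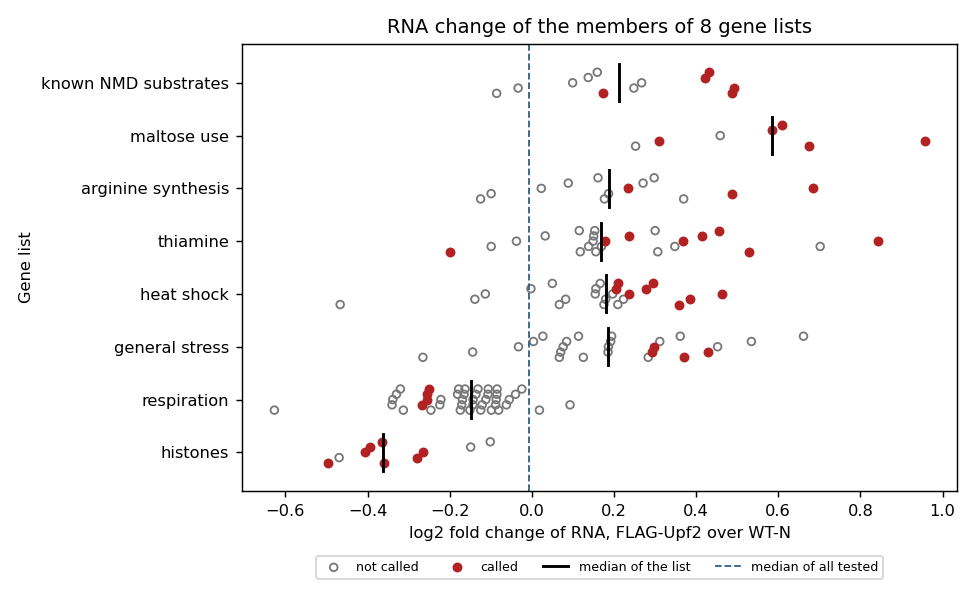
Log2 fold change of RNA, FLAG-Upf2 over WT-N, for each member of 8 gene lists, filled where called and open where not, with a black bar at the median of the list and a dashed line at the median of all tested transcripts (-0.0057). Maltose genes have a median of 0.59 and NMD substrates of 0.21, while histone genes have a median of -0.36 and respiration genes of -0.15.

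The strain difference was called to depend on cycloheximide for a single transcript, STE2 (0.015% of 6656), while 329 had an unadjusted p under 0.05. The called changes were mostly larger without the drug. Of the 293 transcripts called higher outside the set-apart lists, 268 had a larger difference without cycloheximide, with a median log2 fold change of 0.27 in CHX libraries and 0.43 in noCHX libraries. Over all 6600 transcripts outside those lists, 3502 had an interaction of that sign (CHX minus noCHX below 0). Of the 169 called lower, 132 differed more without the drug, with medians of -0.19 in CHX and -0.27 in noCHX libraries. All 292 higher and 168 lower transcripts that could be fitted in both treatments kept their direction in each. The 7 maltose genes had medians of 0.39 with and 0.78 without the drug. Selection of the calls used both treatments, so these sizes are given as a description.

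The tagged strains could be compared directly, without WT-N, in a fit of 16 libraries of FLAG-Upf2, FLAG-Upf1, FLAG-Upf3 and WT-N. Of these strains only FLAG-Upf2 lay on the α-cell side in the sums above. Mating type therefore coincides with the strain in its contrasts with FLAG-Upf1 and FLAG-Upf3 too, and cannot be told apart there. FLAG-Upf1 was W303 upf1::HIS3 with pG1-FLAG-UPF1, and FLAG-Upf3 was W303 upf3::HIS3 with YEplac195-TPI-FLAG-UPF3, each with 2 CHX and 2 noCHX libraries. FLAG-Upf2 differed from FLAG-Upf1 in 1999 of 6725 transcripts (29.7%), 1054 higher and 945 lower, and from FLAG-Upf3 in 1676 (24.9%), 842 higher and 834 lower. HIS3, the disrupting marker in all 3 tagged strains, did not pass the test in either contrast (0.19 and -0.12). FLAG-Upf2 exceeded both other strains in CPA1 (0.58 over FLAG-Upf1, adjusted p = 1.96e-08, and 0.35 over FLAG-Upf3, adjusted p = 1.09e-05) and in KAR2 (0.49, adjusted p = 0.000284, and 0.46, adjusted p = 0.000753). It lay below both in GYP8 (-0.77, adjusted p = 1.63e-06, and -0.70, adjusted p = 8.98e-06) and in TOH1 (-0.69, adjusted p = 2.5e-08, and -0.58, adjusted p = 3.04e-07). GYP8 and TOH1 are the neighbours of the a-cell genes STE2 and ASG7 given above.

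Against FLAG-Upf3, 8 of the 12 NMD substrates were higher in FLAG-Upf2 and 0 lower, where 12.5% of transcripts were higher, with a median of 0.26. Against FLAG-Upf1, 2 were higher and 3 lower, where 15.7% and 14.1% were. Of all transcripts, 12.4% were lower in FLAG-Upf2 than in FLAG-Upf3 and 14.1% lower than in FLAG-Upf1. The 10 histone genes showed 8 lower calls against FLAG-Upf3 and 0 calls against FLAG-Upf1, with medians of -0.27 and -0.03. HTB1 was lower than in FLAG-Upf3 by -0.50 (adjusted p = 6.22e-06) and differed from FLAG-Upf1 by 0.02 (adjusted p = 0.795). Respiration genes were lower in FLAG-Upf2 than in both, in 35 of 42 against FLAG-Upf1 and 25 of 42 against FLAG-Upf3, with medians of -0.28 and -0.20. Mitochondrial ribosome genes were lower in 29 of 67 against FLAG-Upf1 and 41 of 67 against FLAG-Upf3. Maltose genes were higher in 6 of 7 against FLAG-Upf3 and lower in 4 of 7 against FLAG-Upf1. ARG1 was higher than in FLAG-Upf1 (1.30, adjusted p = 3.23e-07) and did not pass the test against FLAG-Upf3 (0.19, adjusted p = 0.168).

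Each tagged strain can also be set beside WT-N, which they share as control. In the fit of 16 libraries, 2517 transcripts differed from WT-N in FLAG-Upf1 (37.4%) and 507 in FLAG-Upf3 (7.54%). NMD substrates were higher in 5 and lower in 1 of 12 in FLAG-Upf1, where 17.9% of all transcripts were higher and 19.5% lower. In FLAG-Upf3 1 was higher and 1 lower, where 3.61% and 3.93% of all transcripts were. EBS1 was 0.31 in FLAG-Upf1 and -0.01 in FLAG-Upf3. Among the 3 Upf genes, the large increase in each strain was in the one carried on its plasmid: NAM7 by 6.48 in FLAG-Upf1, UPF3 by 7.74 in FLAG-Upf3, and NMD2 by 5.97 in FLAG-Upf2.

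A pair of groups with no sample in common with these was also set beside them. DE572AA-FLAG is W303 upf1::HIS3 with a plasmid for Upf1 bearing the DE572AA substitution, which lies in the helicase domain, and WT-C is wild type with pRS425, each with 3 CHX libraries and another rRNA removal kit, QIAseq FastSelect. In DE572AA-FLAG against WT-C, 3630 of 6739 transcripts were called (53.9%), 26.3% higher and 27.6% lower, and 10 of the 12 NMD substrates were higher with a median of 0.97. Of 292 transcripts higher in FLAG-Upf2 and tested in both, 251 were higher in DE572AA-FLAG as well, which is 86.0% of the 292 and 14.4% of the 1743 transcripts higher in DE572AA-FLAG. Of all 6567 transcripts in both, 26.5% were higher in DE572AA-FLAG. Of 169 lower in FLAG-Upf2, 87 were lower in DE572AA-FLAG, which is 51.5% of the 169 and 4.73% of the 1838 lower there, against 28.0% of all, and 20 were higher.

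Sizes differed between the experiments. The 607 transcripts at least 2-fold higher in DE572AA-FLAG had a median log2 fold change of 0.29 in FLAG-Upf2, with 91.9% positive, 146 called higher and 6 lower. The 2986 not called in DE572AA-FLAG had 32 higher and 62 lower calls in FLAG-Upf2. Across the 6567 transcripts, which share annotation and expression level, Pearson's r was 0.26 and Spearman's rho 0.47. Among named genes, CPA1 had a log2 fold change of 0.49 in FLAG-Upf2 and 1.16 in DE572AA-FLAG, MAL11 of 0.96 and 2.86, and PET18 of 0.70 and 2.42. ARG1 differed in sign, at 0.68 in FLAG-Upf2 and -0.58 in DE572AA-FLAG (adjusted p = 0.000153), as did GYP8, at -0.76 and 0.75 (adjusted p = 1.05e-06).

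Genes near chromosome ends were called higher more often than others, a pattern looked for after the values were seen. Distance was measured from a gene to the outermost annotated gene of its chromosome arm. Within 20 kb, 45 of 207 mRNAs were called higher (21.7%) and 4 lower, with a median of 0.25. Beyond 20 kb, 229 of 5547 were higher (4.13%) and 160 lower, with a median of -0.02. MAL11, YEL073C, YER188W, MAL31 and COS10 among the 12 largest increases were within 20 kb, as were ARN2, ADH4, THI11 and MAL13, all higher, and IMD2, which was lower. Genes near ends were also expressed at a lower level, with a median of 9.29 CPM against 56.3 CPM beyond 20 kb. Among genes of 5 to 50 CPM, 28 of 82 within 20 kb were higher (34.1%), against 134 of 2045 beyond (6.55%).

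The same genes within 20 kb had 135 higher and 13 lower calls of 204 in DE572AA-FLAG against WT-C, and against WT-N 102 higher and 12 lower in FLAG-Upf1 and 4 higher and 7 lower in FLAG-Upf3. Beyond 20 kb there were 1430 higher and 1794 lower calls of 5532 in DE572AA-FLAG, 996 and 1239 in FLAG-Upf1, and 209 and 224 in FLAG-Upf3. The count of 45 was 7 with culture codes summed. It was 21 without FLAG-Upf2 CHX replicate 1, 12 without FLAG-Upf2 noCHX replicate 1, 19 without FLAG-Upf2 noCHX replicate 2, 22 without WT-N CHX replicate 1, 21 without WT-N noCHX replicate 1 and 20 without WT-N noCHX replicate 2. Part of this region has repeated sequence, and its part in the result was not tested.

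**Figure D5:**
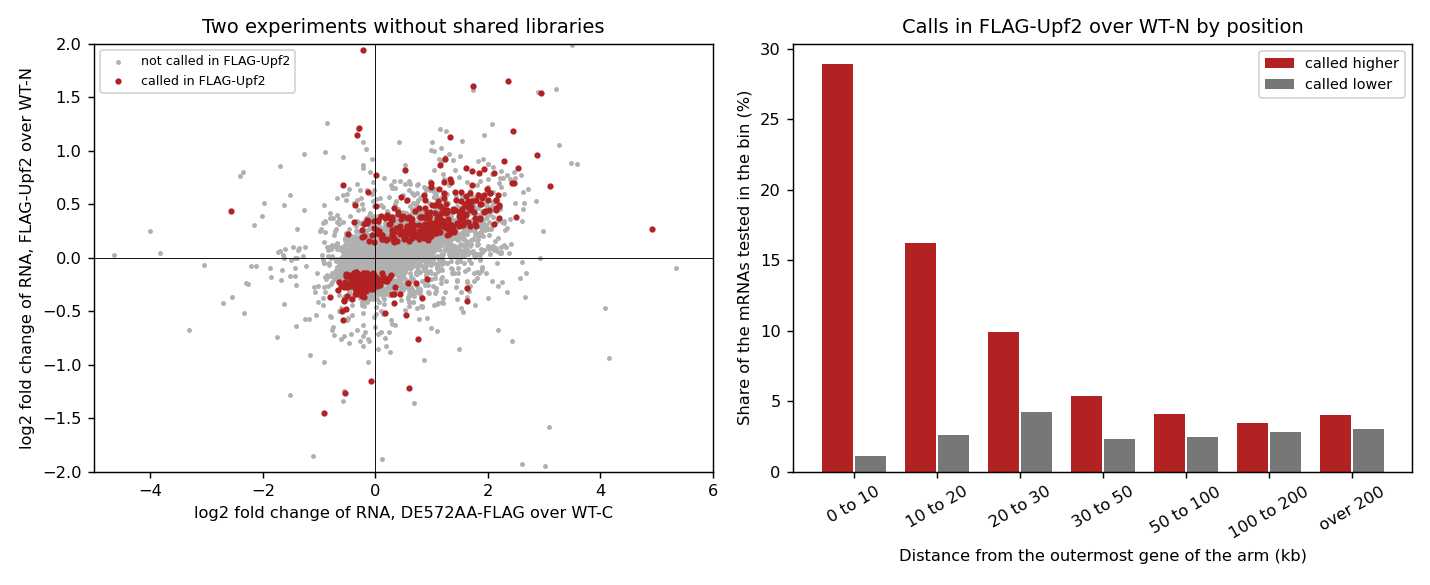
Left, log2 fold change of RNA in FLAG-Upf2 over WT-N against that in DE572AA-FLAG over WT-C for transcripts outside the set-apart lists, red where called in FLAG-Upf2, with 28 points outside the axes. Right, share of mRNAs called higher (red) and lower (grey) in FLAG-Upf2 by distance from the outermost gene of the arm. Red points above 0 lie mostly to the right, where 251 of 292 were also called higher, and the share called higher was 28.9% within 10 kb and 4.05% beyond 200 kb.

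Ribosome footprints of the same strains gave a second readout at lower depth. The total 80S libraries, made from all ribosomes of a lysate, held 338746 to 935202 expected counts in FLAG-Upf2 and 143937 to 641316 in WT-N, with a wider range of footprint lengths kept in noCHX than in CHX libraries of both strains. Of 4031 transcripts tested, 11 were called (0.273%), 7 higher and 4 lower, and 138 had an unadjusted p under 0.05. They were AFB1, MF(ALPHA)1, MF(ALPHA)2, SAG1, STE3, HIS3 and YDR445C, all higher, and BAR1, MFA2, STE2 and STE6, all lower. STE3 had 212, 202, 254 and 235 CPM of footprints in FLAG-Upf2 and was listed at 0 in the 4 WT-N libraries. BAR1 had 0, 6.52, 0 and 2.14 CPM in FLAG-Upf2 and 371, 356, 347 and 346 CPM in WT-N. Outside the set-apart lists only YDR445C passed (1.61, SE 0.29, adjusted p = 0.0229), with an RNA value of 0.71 that did not (adjusted p = 0.618).

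NMD2 could not be compared in footprints, since its mRNA entry is listed at 0 in all 8 total 80S libraries, as are those of NAM7 and UPF3. PTC7 had 83, 74.5, 31 and 140 expected footprint counts in FLAG-Upf2 and 0, 14, 8 and 12 in WT-N, and did not pass the test (2.44, adjusted p = 0.297). CPA1 had 216, 269, 236 and 296 CPM of footprints in FLAG-Upf2 and 115, 107, 229 and 183 CPM in WT-N (0.82, SE 0.26, adjusted p = 0.899). ARG1 had 181, 211, 251 and 268 CPM of footprints in FLAG-Upf2 and 131, 159, 97.3 and 92.4 CPM in WT-N (0.98, SE 0.29, adjusted p = 0.783). The strains did not overlap for ARG1 footprints, but neither difference passed the test at this depth.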

How the data were processed

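RNA was extracted from cell lysates, depleted of ribosomal RNA and made into libraries with a stranded TruSeq kit, per the labels' protocols. The authors deposited expected counts per transcript entry from RSEM, with unspliced entries named apart, for RNA and for total 80S footprints. They also deposited FPKM values, used here only for levels of NMD2, NAM7, UPF3 and PTC7. The submitters' processing notes name Bowtie, cutadapt, RSEM and the builds R64 and sacCer3; versions, and whether counting used strand, are not given in the sources used here. Of 6952 entries 343 were named pre-mRNA and are called unspliced here, and 5966 of 6656 loci matched a RefSeq R64 row.

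Expected counts were rounded and tested with edgeR 4.0.16 in R 4.3.3 (TMM scaling, robust quasi-likelihood fit, filterByExpr with a minimum count of 10, treatment as covariate), with Benjamini-Hochberg adjustment over all transcripts tested and a threshold of 0.05. SE was taken from the fold change and its F value. Direct contrasts used 1 fit of the tagged strains and WT-N, and DE572AA-FLAG was fitted with the other libraries of its set. The fit was tested on simulated data. Alternatives used DESeq2 1.42.0, limma 3.58.1, other scaling and filters, summed culture codes, and left-out libraries.

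Named genes were the 12 largest increases and 12 largest decreases among called mRNAs with a mean of at least 5 CPM and both FLAG-Upf2 libraries on the same side of both WT-N libraries within each treatment. Added to these were all genes of the construct, W303 allele, NMD factor and NMD substrate lists, called or not, and the mating-type genes called. So were 6 higher and up to 3 lower unspliced entries under the same conditions, and up to 4 called members of each other list. Further list members, such as those of the maltose, histone, heat shock and thiamine lists, were named after their values were seen. The members and lists were chosen with earlier results of these data known. A gene of the arginine list is not reported here.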

Additional observations from a re-analysis of the deposited data

Results flagged for a closer look

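The strain difference of STE2, the receptor for α factor in a cells, differed between treatments by 1.16 on the log2 scale (CHX minus noCHX, SE 0.10, adjusted p = 0.0211, edgeR's test of the interaction). STE2 had 12 and 14.1 CPM in FLAG-Upf2 CHX and 5.45 and 5.10 CPM in FLAG-Upf2 noCHX, against 465 and 472 CPM in WT-N CHX and 416 and 420 CPM in WT-N noCHX. It was the sole transcript called for this interaction, and it was not called with a replicate block. No transcript was called without FLAG-Upf2 noCHX replicate 1, FLAG-Upf2 CHX replicate 2, WT-N CHX replicate 1 or WT-N CHX replicate 2. Without FLAG-Upf2 noCHX replicate 2 the only call, 1 transcript, had a negative value.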

How the results depend on the processing

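Transcripts called numbered 484, against 1062 with DESeq2 (480 shared), 74 with culture codes summed (74 shared), 310 by voom with a culture code correlation (307 shared), 981 with all 18 libraries of the N-terminal set (457 shared), 31 in CHX libraries alone and 41 in noCHX libraries alone. Known NMD substrates called higher numbered 5, against 8 with DESeq2, 2 with culture codes summed, 3 with voom, 0 in CHX and 2 in noCHX libraries alone. Unspliced entries called numbered 13, against 33 with DESeq2, 6 with culture codes summed, 27 with all 18 libraries, 4 in CHX and 5 in noCHX libraries alone. The interaction had 1 call, against 9 with DESeq2. Total 80S footprints had 11 calls, against 30 without a filter, 18 with DESeq2 and 4 in noCHX libraries alone. The cause was not tested.

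Leaving out 1 library gave 135 to 480 called transcripts, and leaving out both libraries of a culture code gave 35 (FLAG-Upf2 replicate 1), 127 (FLAG-Upf2 replicate 2), 106 (WT-N replicate 1) and 311 (WT-N replicate 2). Over both kinds of omission there were 1 to 5 NMD substrates, 5 to 17 unspliced entries (7 to 17 without 1 library), 15 to 16 mating-type genes and NMD2 changes of 5.71 to 6.19. Without 1 library there were 0 to 5 interactions, 10 to 13 footprint calls, 1408 to 2346 calls against FLAG-Upf1, 1161 to 1917 against FLAG-Upf3 and 3119 to 3749 in DE572AA-FLAG. Where both libraries of a culture code were left out, the lone code is assumed to vary like the others. With a replicate block 476 transcripts were called, 417 of them shared, with 3 NMD substrates and 0 interactions. Replicate numbers did not pair the libraries: the deviations of same-numbered libraries had correlations of -0.573 (CHX) and 0.101 (noCHX). The crossed replicate block, chosen after seeing the data, gave 489 calls and 20 unspliced entries. Summing spliced and unspliced entries gave no value for unspliced entries. No called value changed sign in these alternatives; IPT1 (-0.01 to 0.03) and YHR078W (-0.42 to 0.14), neither called, did. The footprint libraries held at most 935202 counts each, and the part of depth in their few calls was not tested.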

Other observations

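Genes next to called mating-type genes by locus name were called more often than others, a pattern noticed after the values were seen. Of 32 such neighbours tested, 12 were called (37.5%), 2 higher and 10 lower, against 450 of the other 6568 transcripts (6.85%). YNL146C-A, beside MFA2, had 0.350, 0.533, 0.191 and 0.221 CPM in FLAG-Upf2 and 4.89, 4.49, 2.93 and 3.68 CPM in WT-N (log2 fold change -3.64). YCR041W, beside the MAT locus, had 5.60, 5.14, 4.10 and 5.10 CPM in FLAG-Upf2 and 2.23, 1.44, 0.953 and 0.873 CPM in WT-N (1.94). YJL169W beside ASG7, YLR041W beside AFB1, CMI8 beside MFA1 and HOP2 beside AGA2 were lower by -2.55, -2.19, -1.27 and -1.15. HOP2 acts in meiotic chromosome pairing. Of the 21 transcripts outside the set-apart lists that were called with at least a 2-fold difference, 8 were such neighbours and 3 were HMRA1, its unspliced entry and RDT1. Whether reads of one gene were counted for its neighbour was not tested.

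Of 5 magnesium genes 2 were called higher and 0 lower, where 4.6% of all transcripts were higher, with a median of 0.04. ALR2, a magnesium transporter, had a log2 fold change of 0.50 (adjusted p = 0.0121, called without each library). The call of ALR1, at 0.17, was lost in 7 of the 8 fits without 1 library.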
